A study of Mus musculus with 24 samples.

Results

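A set of 37 genes of fatty acid oxidation and of the PPARA programme was followed across mouse kidney. The members were chosen by gene name, and all 37 were found among the 19399 genes of the deposited table. By role they comprised 2 regulators, 5 genes of uptake, binding and storage, 8 of acyl-CoA synthesis and hydrolysis, 3 carnitine transferases, 11 of mitochondrial beta-oxidation, 3 of electron transfer, 3 of the peroxisome and 2 of fuel choice and uncoupling. All 37 passed the filter on low values. RNA was sequenced from kidney tissue of 24 mice of the inbred strain C57BL/6J aged 10 weeks, with 1 library per mouse and no transgene named in the labels. Watered females (n = 6) and watered males (n = 6) had free access to food and water. Deprived females (n = 5) and deprived males (n = 7) kept their food but had no water for 9 to 11 h before collection, which fell no more than 1 h before or after midnight, when the active period had lasted 6 h. The hours without water are those of the treatment protocol, while the clock time given for removing the water implies a somewhat shorter span. Deprived female 5 is placed by its title among the mice without water, although its treatment label describes free access. A kidney piece is a mixture of cell types, and for every value given here fewer cells of a type and less RNA per cell cannot be told apart.

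Proximal tubule cells have a high energy demand and meet it largely by burning fatty acids, which they take from the blood and from the filtrate. Fatty acids are coupled to coenzyme A, carried into mitochondria as carnitine esters and shortened by cycles of dehydrogenation, hydration, dehydrogenation and thiolysis, while peroxisomes shorten very long and branched chains. PPARA is a nuclear receptor that binds fatty acids and, paired with RXR, switches on many of these genes during fasting, when PDK4 also turns cells away from glucose. The kidney of male and female mice is known to differ in many proximal tubule genes, a difference tied to androgens and other sex hormones.

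Promoter sequences of the members that stood out are shown first, for the genes with the widest gaps between the sexes and for others that the results turn on. RefSeq windows of the GRCm38.p6 assembly, from 250 bases before to 50 bases after an annotated start, were found for 32 of the 37 members, with 34 windows in all. Acaa2, Angptl4, Crat, Decr1 and Vnn1 were without one. The 2 windows of the medium-chain acyl-CoA synthetases with the widest gap between the sexes are given first, and capitals mark the 50 bases from the start onwards. They lie on the plus strand at chr7:119760673-119760972 and chr7:119554090-119554389.
Acsm3: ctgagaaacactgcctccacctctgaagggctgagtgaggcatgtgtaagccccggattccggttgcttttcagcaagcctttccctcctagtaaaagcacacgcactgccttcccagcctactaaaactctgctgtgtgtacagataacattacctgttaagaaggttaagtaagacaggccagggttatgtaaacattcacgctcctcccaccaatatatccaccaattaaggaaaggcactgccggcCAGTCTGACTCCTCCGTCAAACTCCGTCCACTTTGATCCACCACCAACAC
Acsm2: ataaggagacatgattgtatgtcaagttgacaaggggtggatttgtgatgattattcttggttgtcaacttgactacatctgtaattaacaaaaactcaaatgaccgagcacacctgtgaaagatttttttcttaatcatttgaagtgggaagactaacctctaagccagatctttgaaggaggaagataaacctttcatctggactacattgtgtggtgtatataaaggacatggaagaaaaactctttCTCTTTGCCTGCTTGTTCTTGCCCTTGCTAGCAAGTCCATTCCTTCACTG

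The next windows belong to the fatty acid transporter gene Cd36 and the lipid droplet gene Plin2, and lie on the minus strand at chr5:17835847-17836146 and chr4:86670010-86670309. The Cd36 window sits at an annotated start inside the gene, which spans 17781690 to 17888801. Capitals mark the match to the direct repeat with 1 spacer base that PPARA and RXR bind as a pair, AGGTCANAGGTCA, searched on both strands with at most 2 mismatches outside the spacer.
Cd36: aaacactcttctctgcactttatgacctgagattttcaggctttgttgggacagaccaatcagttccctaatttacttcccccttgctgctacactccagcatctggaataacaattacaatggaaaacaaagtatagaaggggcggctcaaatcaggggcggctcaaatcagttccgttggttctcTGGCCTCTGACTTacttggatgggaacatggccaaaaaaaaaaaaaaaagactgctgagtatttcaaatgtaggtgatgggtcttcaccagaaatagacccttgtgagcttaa
Plin2: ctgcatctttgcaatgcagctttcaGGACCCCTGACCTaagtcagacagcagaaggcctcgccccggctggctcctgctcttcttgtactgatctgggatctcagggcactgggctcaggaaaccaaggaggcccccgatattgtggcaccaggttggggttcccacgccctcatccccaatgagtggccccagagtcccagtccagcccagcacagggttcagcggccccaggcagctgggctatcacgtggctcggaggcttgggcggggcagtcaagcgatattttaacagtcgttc

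That match was found in 3 of the 34 member windows, those of Cd36, Etfa and Plin2, against 3.86% of the 32851 windows in the table. Each of the 3 had 2 mismatches. An exact match was in 0 of 34, against 0.0396% of all windows. The single unit AGGTCA, which the longer motif contains in both its parts, was in 7 of 34 against 16.3%. The androgen receptor repeat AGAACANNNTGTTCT with at most 2 mismatches was in 0 of 34 against 1.84%, and its single unit AGAACA was in 3 of 34, those of Acot1, Acsm2 and Hadh, against 19.0%. These letters describe short windows only and say nothing of binding. Hadha and Hadhb, which encode the alpha and beta subunits of the trifunctional protein, start 86 bases apart on opposite strands by the GENCODE annotation. Their windows rest on RefSeq starts, which differ from those, and share 228 bases. These are in capitals in the Hadhb window at chr5:30155003-30155302 on the plus strand.
Hadhb: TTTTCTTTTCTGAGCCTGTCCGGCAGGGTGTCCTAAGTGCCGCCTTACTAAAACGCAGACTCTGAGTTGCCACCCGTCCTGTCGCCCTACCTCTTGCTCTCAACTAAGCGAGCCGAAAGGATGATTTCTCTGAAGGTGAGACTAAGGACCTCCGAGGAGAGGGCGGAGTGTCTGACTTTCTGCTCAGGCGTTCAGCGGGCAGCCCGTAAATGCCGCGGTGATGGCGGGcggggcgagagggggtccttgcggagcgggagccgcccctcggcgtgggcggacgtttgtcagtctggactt

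Values are the authors' normalized counts, that is reads per gene divided by 1 size factor per library, and differences are limma log2 changes of the value plus 1, with their standard error (SE) and a p adjusted over the 17592 tested genes. A change was called when the adjusted p was below 0.05. Libraries held 14411843 to 29398960 reads. The members together took 1.313% to 1.439% of reads in watered females, 1.272% to 1.357% in deprived females, 1.795% to 1.906% in watered males and 1.646% to 1.852% in deprived males. The libraries of watered female 6, of deprived female 1 and of the deprived males 6 and 7 stood apart, with 1.074% to 2.858% of reads in the unnamed gene ENSMUSG00000119584 against 0.268% to 0.85% in the other 20. Deprived male 7 alone held the highest value of all 24 libraries for 18 of the 37 members. Watered female 6 did so for 1 member, and deprived female 1 and deprived male 6 for 2 each. The share of all tested genes for which these libraries were highest is not given here, so these counts have no background. Results are also given without these 4 libraries. Their scores on the first principal component of the deviations from group means, 25.8 to 62.5, were the highest of all 24. Leaving out libraries far from their group lowers the spread within groups. Calls gained that way are therefore no separate support. Markers of the proximal tubule were abundant in every library, 12 of 12 being measured, with a summed normalized count of 396240 to 434999 in watered females, 338441 to 402733 in deprived females, 423625 to 501096 in watered males and 440322 to 471944 in deprived males. The S3 segment list (8 of 8 measured) summed to 86921 to 106796, 80643 to 89190, 97321 to 119043 and 85612 to 111480 in the same order. The 9 fat cell markers summed to 36902.5 to 89851, of which Pck1, a gluconeogenic enzyme that the proximal tubule also makes, held 35119 to 88580 and the other 8 together 958 to 2896. Among those 8, Lep lay below the filter and Adipoq read 0.0 to 137 across all 24 libraries, while markers of muscle (3 of 6 in the table) and adrenal cortex (1 of 5) summed to at most 64.8 and 131.5.

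Per kilobase of exon, Slc27a2, which encodes a very long-chain fatty acid transporter and acyl-CoA synthetase of the proximal tubule, had the highest level of the set in every group, with a mean normalized count per kb of 18595 in watered females and 25394 in watered males. Acsm2, Acadm, Ehhadh, Etfa and Acaa1b came next by the mean of the 4 groups, at 8529.9, 6756, 6169, 4640.2 and 4520.0 per kb. The receptor gene Ppara was lowest by that mean, at 265.8 per kb. The place of Acsm3 moved most with sex, from 28.7 per kb in watered females, the lowest of the set there, to 3591 in watered males.

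Males and females differed widely in these genes. With water, 27 of the 37 members were called between males and females, 17 higher and 10 lower in males, where 30.5% of all tested genes were called (15.9% higher and 14.5% lower). The sexes did not overlap for 22 members, 15 higher and 7 lower in males, against 22.4% of tested genes (13.3% and 9.07%). The median difference of the members was 0.11 and that of all genes -0.02. Without water, 23 members were called, 19 higher and 4 lower in males, against 33.1% of genes (17.5% and 15.6%). There 18 members did not overlap, 15 higher and 3 lower, against 15.5% (9.06% and 6.39%), and the medians were 0.34 for the members and -0.02 for all genes. The water groups are different animals, and 21 members were called in both in the same direction. Of these, 17 were higher in males and 4 were lower: Hadha, Acsl1, Acsm1 and Pdk4. The share of all genes called in both is not given here, so these counts have no background beside them. Without the 4 libraries that stood apart, 29 and 28 members were called, where 42.0% and 40.8% of genes were.

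**Figure D1:**
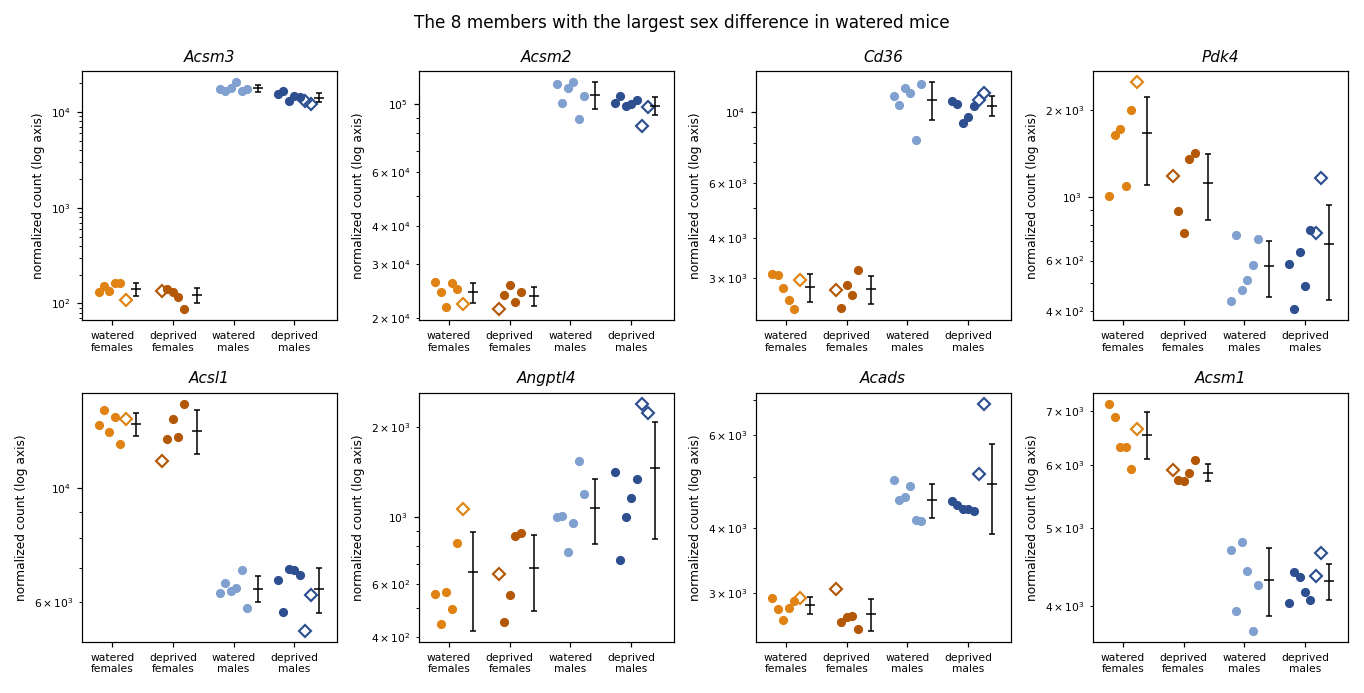
Normalized counts on log axes of 8 members by group, 1 point per mouse, with bars for the mean ± SD and open diamonds for the 4 libraries that stood apart. Acsm3 lies at 87.6 to 162 in the females and at 12044 to 20553 in the males, while Angptl4 overlaps between the sexes in both water groups.

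The 2 regulators showed no large gap between the sexes. Ppara (chromosome 15, 85734983 to 85802819 on GRCm38, as are all gene coordinates here) encodes the receptor itself. Ppara read 721 to 1346 (median 1131) in watered females, 336, 1070.3, 1316, 997 and 1113 in the 5 deprived females, 870.5 to 1259 (median 1134) in watered males and 408 to 1377 (median 939) in deprived males. The groups overlapped, and the male minus female difference was 0.07 ± 0.29 (adjusted p = 0.89) with water and -0.04 ± 0.30 (adjusted p = 0.93) without. The 4 lowest values of Ppara among the 24 libraries, 335.6, 408, 496 and 721, were those of the 4 libraries that stood apart. Ppargc1a (chromosome 5, 51454250 to 51567726) encodes PGC-1alpha, a coactivator of PPARA and of mitochondrial genes. The normalized counts of Ppargc1a were 1733 to 2290.4 (median 2071) in watered females, 1641.5 to 1854 (median 1812) in watered males and 1469 to 1920.4 (median 1860.3) in deprived males, and 1689, 2103, 2285, 1863 and 1809.6 in the deprived females. It was lower in watered males, at -0.20 ± 0.07 (adjusted p = 0.046), with overlapping groups, and read -0.12 ± 0.08 (adjusted p = 0.23) in deprived mice. That call held in 11 of 24 fits that left out 1 library.

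Of 5 genes of uptake, binding and storage, 4 were higher in males in both water groups, and Fabp3 was not called in either. Over all genes 15.9% were higher in males with water and 17.5% without. Cd36 (chromosome 5, 17781690 to 17888801) encodes a membrane receptor that takes up long-chain fatty acids. Cd36 read 2395 to 3085 (median 2866.5) in watered females, 2749, 2407, 2849, 2642 and 3181 in the 5 deprived females, 8164 to 12322 (median 11401) in watered males and 9268 to 11531 (median 10675) in deprived males. All males lay above all females, and the difference was 1.96 ± 0.09 (adjusted p = 8.5e-16), or 3.89-fold, with water and 1.93 ± 0.09 (adjusted p = 1.8e-15) without. Endothelial cells also use Cd36. The 8 markers of endothelium summed to 14063 to 15822 in watered females and 12749 to 14963 in watered males. Of these, 3 of 8 were called lower in males and 0 higher, where 14.5% of all genes were lower and 15.9% higher. The part of endothelial cells in the Cd36 values was not tested.

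Slc27a2 (chromosome 2, 126552407 to 126588243) was 65629 to 72406 (median 70170.0) in watered females and 87114 to 100787 (median 95891) in watered males. The deprived females held 66748, 66666, 64901.5, 64924 and 59885 and the deprived males 95419.8 to 103355 (median 96725). The sexes did not overlap in either water group, and the differences were 0.45 ± 0.05 (adjusted p = 2.3e-08) and 0.61 ± 0.05 (adjusted p = 9.6e-11). Plin2 (chromosome 4, 86648386 to 86670060) encodes a coat protein of lipid droplets. In watered females Plin2 ranged over 1375 to 1537 (median 1436) and in the deprived females it was 1327, 1198, 1106, 1121 and 1157, while watered males held 1720.0 to 2178 (median 1791) and deprived males 1549.6 to 2419 (median 1846). Males were above females without overlap in both water groups, by 0.36 ± 0.08 (adjusted p = 0.00086) and 0.65 ± 0.08 (adjusted p = 4.4e-07). Angptl4 (chromosome 17, 33773750 to 33781830) encodes a secreted inhibitor of lipoprotein lipase and is a classic PPARA target. Angptl4 read 443 to 1065 (median 559.7) in watered females, 647, 448, 551, 865.5 and 889 in the 5 deprived females, 768 to 1535 (median 1007) in watered males and 724 to 2388 (median 1338) in deprived males. It was higher in males by 0.75 ± 0.26 (adjusted p = 0.029) and 1.04 ± 0.26 (adjusted p = 0.0031), although the sexes overlapped, and the call with water held in 18 of 24 fits that left out 1 library. Fabp3, which encodes a cytosolic fatty acid binding protein, had differences of -0.05 ± 0.12 (adjusted p = 0.8) and 0.02 ± 0.12 (adjusted p = 0.93).

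The genes of acyl-CoA synthesis and hydrolysis were split. With water, 3 of 8 were higher in males (Acsm2, Acsm3 and Acsm5) and 4 were lower (Acsl1, Acsm1, Acot1 and Acot2). Of all genes 15.9% were higher and 14.5% lower there. Acsm3 encodes a medium-chain acyl-CoA synthetase of the mitochondrial matrix and had the smallest p of all tested genes in watered mice. The normalized counts of Acsm3 were 109 to 162 (median 143) in watered females, 16469.9 to 20553 (median 17350.2) in watered males and 12044 to 16552 (median 14489) in deprived males, and 136, 139.9, 132, 118 and 87.6 in the deprived females. The sexes lay far apart, with a difference of 6.97 ± 0.11 (adjusted p = 7.1e-26), or 125-fold, with water and 6.85 ± 0.11 (adjusted p = 8.2e-26), or 116-fold, without. Acsm2, its close relative, had the highest normalized count of the members in all 6 watered males and in 4 of 7 deprived males, where Slc27a2 was highest in the other 3. In watered females Acsm2 ranged over 21751 to 26180.5 (median 24561) and in the deprived females it was 21407.5, 23855, 25635, 22626 and 24361, while watered males held 89428 to 117307 (median 109259) and deprived males 84286 to 106276 (median 99979). Every male exceeded every female, by 2.14 ± 0.07 (adjusted p = 1.1e-18) and 2.06 ± 0.07 (adjusted p = 3.6e-18). Acsm5, a further member of that family, was higher in males by 0.50 ± 0.12 (adjusted p = 0.0021) and 0.51 ± 0.12 (adjusted p = 0.002).

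Acsm1, also of that family, went the other way. Acsm1 read 5929 to 7154 (median 6489.8) in watered females, 5919.9, 5753, 5729, 5861 and 6093 in the 5 deprived females, 3723 to 4808 (median 4335) in watered males and 4033 to 4661 (median 4347) in deprived males. Every male was below every female of the same water group, at -0.61 ± 0.06 (adjusted p = 8.1e-09) and -0.45 ± 0.06 (adjusted p = 1.6e-06). Acsl1 (chromosome 8, 46471037 to 46536051) encodes a long-chain acyl-CoA synthetase and is a PPARA target in liver. The normalized counts of Acsl1 were 12167.5 to 14140.0 (median 13413) in watered females, 5842 to 6925 (median 6356.5) in watered males and 5291 to 6964 (median 6642) in deprived males, and 11284, 12419, 13624, 12571 and 14543 in the deprived females. Males were lower without overlap, with differences of -1.06 ± 0.07 (adjusted p = 2.4e-12) and -1.02 ± 0.07 (adjusted p = 7.3e-12). Acot1 and Acot2, a cytosolic and a mitochondrial acyl-CoA thioesterase, were lower in watered males, at -0.45 ± 0.14 (adjusted p = 0.019) and -0.40 ± 0.14 (adjusted p = 0.037), and stood at -0.06 ± 0.15 and -0.08 ± 0.15 in deprived mice, where neither was called. These genes lie 15.6 kb apart on chromosome 12 and share 527 windows of 50 exonic bases, 13.6% of those of Acot1 and 24.5% of those of Acot2, so their counts are uncertain. Vnn1 encodes vanin-1, which recycles the vitamin part of coenzyme A. The male minus female difference was 0.10 ± 0.11 (adjusted p = 0.55) with water and 0.55 ± 0.11 (adjusted p = 0.00027) without.

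The 4 Acsm members lie in 1 stretch of chromosome 7 (GRCm38), all on the plus strand, in the order Acsm5 (119519463 to 119545551), Acsm2 (119554340 to 119600690), Acsm1 (119607026 to 119662515) and Acsm3 (119760923 to 119787513), 268.1 kb from the first start to the last end. No window of 50 exonic bases is shared between any pair of them. With 200 kb on each side the stretch holds 19 genes of the table, of which 18 were tested. Gm19950 and Gm45792 lie inside Acsm1 on the opposite strand and were higher in watered males by 0.83 ± 0.07 and 1.78 ± 0.12 (limma adjusted p = 1e-10 and 8.8e-12), whereas Acsm1 was lower. Eri2 shares 1962 exonic bases with Acsm3 on the opposite strand and was higher in watered males by 1.85 ± 0.13 (limma adjusted p = 1.5e-11). Whether counting used strand is not given in the sources used here, so reads of Eri2 and Acsm3 from the shared bases cannot be told apart. Neither Gm19950 nor Gm45792 shares exonic bases with Acsm1 in the annotation. Of the flanking genes, Dcun1d3 and Lyrm1 were higher in watered males by 0.78 ± 0.07 and 0.69 ± 0.14 (limma adjusted p = 3.2e-09 and 0.00038), Gp2 was lower, at -0.53 ± 0.11 (adjusted p = 0.00039), and Umod read -0.16 ± 0.06 (adjusted p = 0.063).

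**Figure D2:**
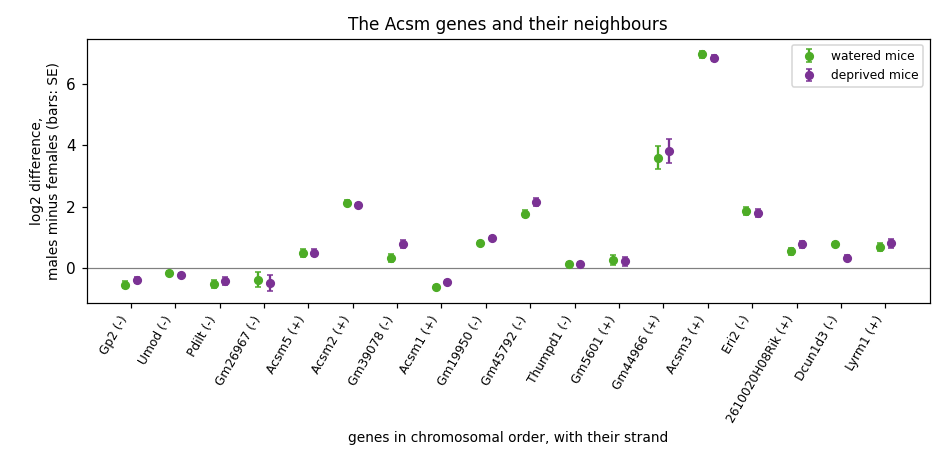
Male minus female log2 difference ± SE of the 18 tested genes of the Acsm stretch and its flanks, in chromosomal order. Watered and deprived mice are in separate colours, and points are filled whether or not a gene was called. In watered mice Acsm3 (6.97), Gm44966 (3.60) and Acsm2 (2.14) are highest, and Acsm1 (-0.61) lies below 0 next to 2 opposite-strand genes above it.

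All 3 carnitine transferase genes were higher in males in both water groups, where 15.9% of all genes were with water and 17.5% without. Cpt1a (chromosome 19, 3322334 to 3385733) encodes the enzyme of the outer mitochondrial membrane that commits long-chain fatty acids to oxidation. In watered females Cpt1a ranged over 7861 to 9046.5 (median 8357) and in the deprived females it was 5639, 8339.7, 8498, 7948 and 8284, while watered males held 9136 to 11578.5 (median 10337) and deprived males 7723 to 11732 (median 10436). The sexes did not overlap with water but did without, and the differences were 0.30 ± 0.10 (adjusted p = 0.019) and 0.37 ± 0.10 (adjusted p = 0.0041). With the balance of proximal tubule over collecting duct markers as a covariate, the watered difference of Cpt1a was -0.04 and no longer called. Calls of several other members were lost with that covariate too, as given further below. Cpt2, which encodes the partner on the inner membrane, was 2552 to 2954 (median 2781.5) in watered females, 2597.5, 2200.1, 2421.5, 2309 and 2495 in deprived females, 3352 to 3803 (median 3491) in watered males and 3085.5 to 6026 (median 3324) in deprived males. It was higher in males without overlap, by 0.36 ± 0.11 (adjusted p = 0.0095) and 0.64 ± 0.11 (adjusted p = 3.7e-05). Crat, which encodes carnitine acetyltransferase for short chains, was higher by 0.23 ± 0.05 (adjusted p = 0.0013) and 0.34 ± 0.05 (adjusted p = 2.2e-05).

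Within mitochondrial beta-oxidation 4 of 11 members were higher and 3 lower in watered males, and 5 were higher and 1 lower in deprived males. Over all genes 15.9% were higher and 14.5% lower with water, and 17.5% and 15.6% without. The acyl-CoA dehydrogenases are ordered by chain length. Acads (chromosome 5, 115110299 to 115119346), for short chains, had the widest gap of the 4. Acads read 2673 to 2946 (median 2862) in watered females, 3066, 2651, 2703, 2715 and 2567 in the 5 deprived females, 4115 to 4930.1 (median 4549) in watered males and 4298 to 6884 (median 4413) in deprived males. It was higher in males without overlap, by 0.66 ± 0.09 (adjusted p = 8.8e-07) and 0.80 ± 0.09 (adjusted p = 4.5e-08). Acadl, for long chains, was higher by 0.30 ± 0.07 (adjusted p = 0.00078) and 0.44 ± 0.07 (adjusted p = 8.7e-06). Acadm, for medium chains, was 23318 to 31839 (median 27334) in watered females and 22939 to 25896 (median 24959) in watered males and had differences of -0.14 ± 0.09 (adjusted p = 0.28) and -0.19 ± 0.10 (adjusted p = 0.12). Acadvl, for very long chains, had differences of 0.11 ± 0.08 (adjusted p = 0.32) and 0.12 ± 0.08 (adjusted p = 0.25), and neither was called. Without the 4 libraries that stood apart Acadvl was called higher in deprived males, at 0.26 (limma adjusted p = 9.7e-06). Dvl2 on the opposite strand shares 1151 exonic bases with Acadvl, and Gm45244 shares 1039 with Acsl1, so reads of these pairs cannot be told apart either.

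The trifunctional protein carries out the later steps for long chains at the inner membrane. Hadha was 7464 to 8473 (median 8209.8) in watered females, 6760.1, 7377, 7375, 7377 and 7849 in deprived females, 5570.5 to 6423 (median 5907) in watered males and 5137 to 6135 (median 5778) in deprived males. It was lower in males without overlap in both, at -0.43 ± 0.05 (adjusted p = 2.4e-07) and -0.37 ± 0.05 (adjusted p = 4e-06). Hadhb was 4670.5 to 5045.5 (median 4796.5) and 3652 to 4192.5 (median 3836) in watered females and males, without overlap, with a difference of -0.31 ± 0.07 (adjusted p = 0.0013). In deprived mice, at 4239 to 5171 and 3717 to 5102, it overlapped, with a difference of -0.11 ± 0.07 (adjusted p = 0.25). Hadh, which encodes the soluble 3-hydroxyacyl-CoA dehydrogenase for shorter chains, went the opposite way, higher in males by 0.37 ± 0.07 (adjusted p = 0.00031) and 0.49 ± 0.08 (adjusted p = 1.2e-05). The thiolase gene Acaa2 was lower in watered males, at -0.50 ± 0.10 (adjusted p = 0.00021) and read -0.23 ± 0.10 (adjusted p = 0.074) in deprived mice.

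Auxiliary enzymes are needed to oxidize unsaturated fatty acids. Eci2, an enoyl-CoA isomerase of peroxisomes and mitochondria, was 1742 to 1966 (median 1781) in watered females and 2364 to 2588 (median 2458) in watered males, without overlap. It was higher in males by 0.45 ± 0.08 (adjusted p = 3.6e-05) and 0.61 ± 0.08 (adjusted p = 5.2e-07). The mitochondrial isomerase gene Eci1 was not called, at -0.31 ± 0.13 (adjusted p = 0.083) and -0.02 ± 0.14 (adjusted p = 0.93). Its watered males, at 1541 to 1955.9, nevertheless lay below all watered females, at 1974 to 2469.9. Without the 4 libraries that stood apart it was called in watered mice, at -0.28 (limma adjusted p = 5.7e-05). The dienoyl-CoA reductase gene Decr1 had differences of 0.16 ± 0.09 (adjusted p = 0.17) with water and 0.39 ± 0.09 (adjusted p = 0.00095) without.

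Electrons from the acyl-CoA dehydrogenases pass through the flavoprotein of Etfa and Etfb to the ubiquinone oxidoreductase of Etfdh. Etfa and Etfdh were higher in males without overlap in both water groups. Etfa was 7218 to 7967 (median 7409.8) in watered females and 9146.5 to 9851 (median 9442.5) in watered males, and had differences of 0.33 ± 0.05 (adjusted p = 9.2e-06) and 0.38 ± 0.05 (adjusted p = 2e-06). Etfdh was 3839.9 to 4111 (median 3959.7) and 4725 to 5393 (median 5104.5) in the same groups, and had differences of 0.34 ± 0.05 (adjusted p = 1.9e-06) and 0.44 ± 0.05 (adjusted p = 3.2e-08). Etfb, whose product pairs with that of Etfa, was only 349 to 598 (median 449) and 366 to 478 (median 416), overlapping, and had differences of -0.11 ± 0.30 (adjusted p = 0.83) and 0.43 ± 0.31 (adjusted p = 0.31). It shares 617 exonic bases with Gm45233 on the same strand, so its count is uncertain.

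Peroxisomal members were mixed. Acaa1a and Acaa1b encode peroxisomal thiolases whose annotated starts lie 182.6 kb apart on chromosome 9 on opposite strands. They share 583 windows of 50 exonic bases, 12.4% of those of Acaa1a and 30.5% of those of Acaa1b, so the split of reads between them is uncertain. Acaa1a was higher in males by 0.20 ± 0.07 (adjusted p = 0.024) and 0.27 ± 0.07 (adjusted p = 0.0029). Acaa1b was 9708 to 12011 (median 10727) in watered females, 8799, 10107, 8199.8, 8120.0 and 6555 in deprived females, 6091 to 9031 (median 7826) in watered males and 6797 to 12746 (median 8334) in deprived males. It was lower in watered males without overlap, at -0.49 ± 0.12 (adjusted p = 0.0022), and overlapped in deprived mice, at 0.05 ± 0.12 (adjusted p = 0.81). Ehhadh, which encodes the peroxisomal bifunctional enzyme and is a strong PPARA target in liver, had differences of 0.11 ± 0.10 (adjusted p = 0.42) and 0.23 ± 0.10 (adjusted p = 0.074).

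Pdk4 (chromosome 6, 5483351 to 5496309) encodes the kinase that switches off pyruvate dehydrogenase and so spares glucose. Pdk4 read 1008 to 2496 (median 1677) in watered females, 1178, 894, 747, 1354 and 1417 in the 5 deprived females, 435 to 738 (median 545) in watered males and 407.5 to 1161 (median 642) in deprived males. Watered males lay below all watered females, at -1.48 ± 0.23 (adjusted p = 1.6e-05), while deprived males and females overlapped, at -0.74 ± 0.23 (adjusted p = 0.017). Ucp2 (chromosome 7, 100493337 to 100502020) encodes a carrier of the inner mitochondrial membrane. The normalized counts of Ucp2 were 2339 to 2698 (median 2471) in watered females, 1793 to 2865.5 (median 2134) in watered males and 1681 to 4178 (median 1899) in deprived males, and 2252, 2688, 2024, 2238 and 2263.5 in the deprived females. The groups overlapped, and the male minus female differences were -0.19 ± 0.16 (adjusted p = 0.4) and -0.08 ± 0.16 (adjusted p = 0.73).

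**Figure D3:**
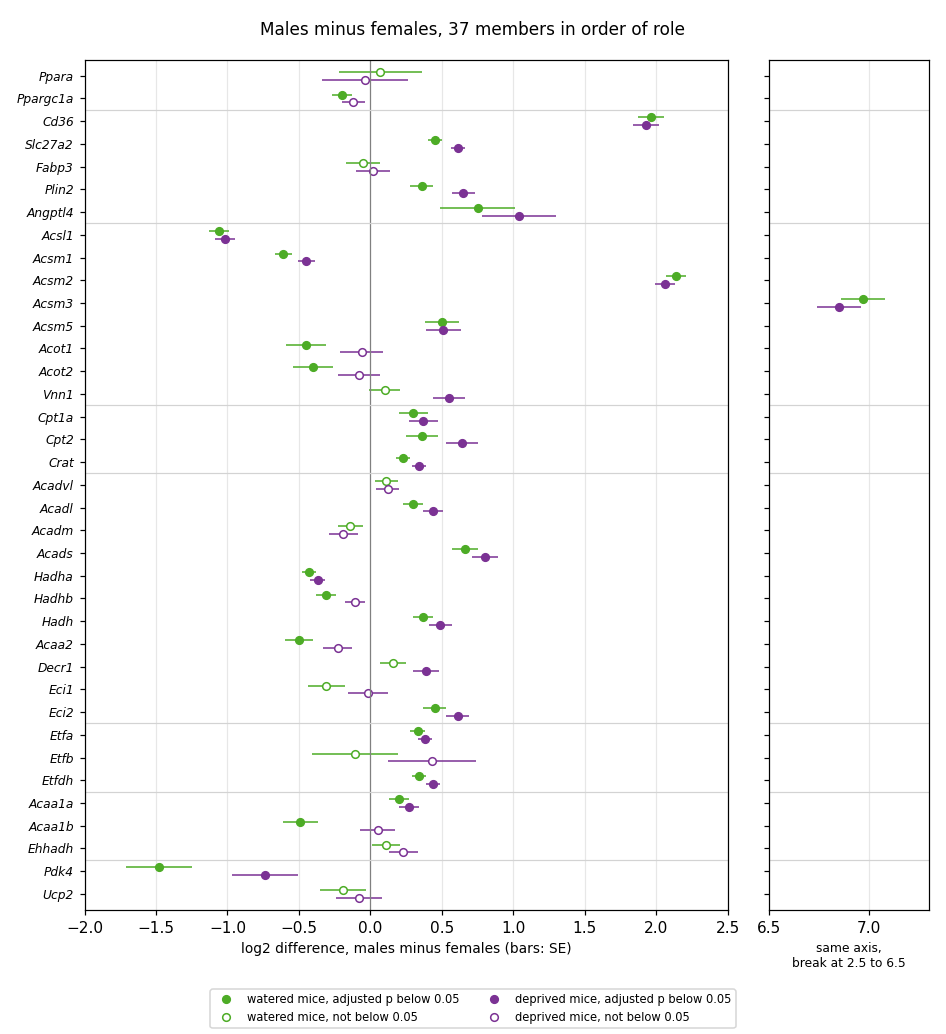
Male minus female log2 difference ± SE of all 37 members with and without water, ordered by role, with filled points for adjusted p below 0.05 and a break in the axis before Acsm3. In watered mice 17 filled points lie above 0 and 10 below, and in deprived mice 19 and 4.

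A total of 6 members were called between the sexes in watered mice and not in deprived mice (Ppargc1a, Hadhb, Acaa2, Acaa1b, Acot1 and Acot2), and 2 in deprived mice and not in watered mice (Decr1 and Vnn1). Without the 4 libraries that stood apart, Hadhb, Acaa2 and Acot2 were also called in deprived mice. They read -0.16, -0.29 and -0.25 there (limma adjusted p = 0.0045, 0.015 and 0.024). Decr1 was then also called in watered mice, at 0.19 (adjusted p = 0.00072). Ppargc1a, Acaa1b and Acot1 stayed called in watered mice only, and Vnn1 in deprived mice only. Eci1 was now called in watered mice only, and Acadvl and Ucp2 in deprived mice only. With all libraries, the test of the difference between the gaps with and without water, which is the same as the male minus the female response to deprivation, called 0 of 37 members and 0 of 17592 genes (0.0%), with 1248 genes at an unadjusted p under 0.05. By edgeR it called 0 genes, and by DESeq2 30 genes and 0 members. Markers of other cells moved with sex as well. In watered mice 4 of 12 proximal tubule markers were higher and 2 lower in males, 2 of 8 S3 markers were higher and 5 lower, and 5 of 5 podocyte markers were lower. Among all genes 15.9% were higher and 14.5% lower there. Slc7a13, an S3 marker, was higher by 8.07 on the log2 scale. The part of cell composition in the sex gaps was not tested beyond fits with a marker balance as a covariate.

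Withholding water changed no member past the threshold. In females 0 of 37 were called, where 0.79% of the 17592 tested genes were (0.449% higher and 0.341% lower), and in males 0 of 37, where 0.227% were (0.142% higher and 0.0853% lower). The mean of both sexes also called 0 of 37, against 1.64%. At an unadjusted p under 0.05 there were 9 members in females, 1 in males and 4 in the mean of the sexes. In females 35 of 37 members had a negative log2 change, with a median of -0.12, while 55.1% of all genes were negative with a median of -0.02. In males 16 members were negative and 21 positive, with a median of 0.04 against 0.00 for all genes. The SE of the members had a median of 0.09 in females and 0.08 in males.

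**Figure D4:**
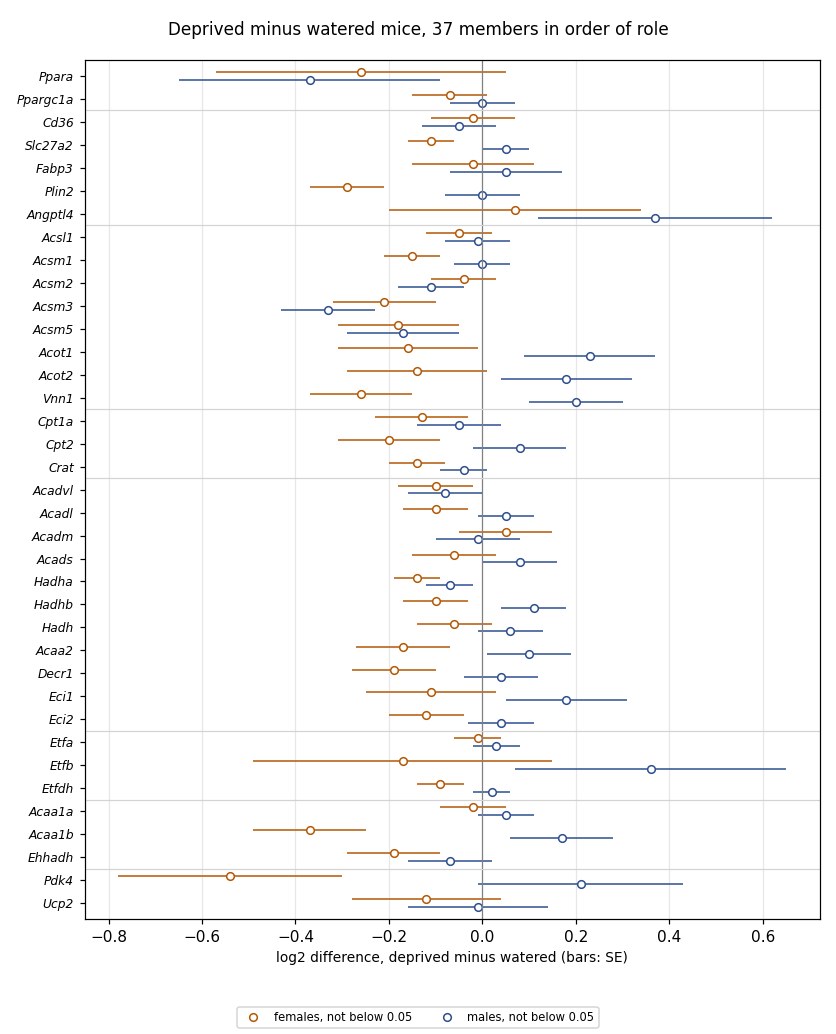
Deprived minus watered log2 change ± SE of all 37 members in females and males, ordered by role, all open because no adjusted p was below 0.05. In females 35 of 37 points lie below 0, and in males 16.

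Ppara was -0.26 ± 0.31 in females and -0.37 ± 0.28 in males (limma adjusted p = 0.91 and 0.58). Without the 4 libraries, which held its 4 lowest values, the changes were -0.02 and 0.00 (adjusted p = 0.96 and 1). Ppargc1a was -0.07 ± 0.08 and 0.00 ± 0.07 (adjusted p = 0.88 and 1).

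Among the genes of uptake and storage, Plin2 had the smallest p in females. All 5 deprived females, from 1106 to 1327, were below all 6 watered females, from 1375 to 1537, a log2 difference of -0.29 ± 0.08 (adjusted p = 0.11). It was the only member whose groups did not overlap in females, where 2.48% of genes did not (1.33% lower), and in males 0 of 37 members did not overlap, against 0.529%. In males Plin2 stood at 0.00 ± 0.08 (adjusted p = 0.99). Slc27a2 was -0.11 ± 0.05 (adjusted p = 0.44) in females and 0.05 ± 0.05 (adjusted p = 0.63) in males. Cd36, Angptl4 and Fabp3 were -0.02 ± 0.09, 0.07 ± 0.27 and -0.02 ± 0.13 in females and -0.05 ± 0.08, 0.37 ± 0.25 and 0.05 ± 0.12 in males, with adjusted p of 0.99, 0.99 and 0.99, and of 0.78, 0.53 and 0.87.

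Of the acyl-CoA genes Acsm3 was the member with the smallest p in males, at -0.33 ± 0.10 (adjusted p = 0.2), and in the mean of both sexes, at -0.27 ± 0.08 (adjusted p = 0.067). Deprived males, at 12044 to 16552, overlapped watered males, at 16469.9 to 20553, in 1 library of each group. DESeq2 called this male change (adjusted p = 0.047). Vnn1 was 1583, 1733, 1525, 1623 and 1600.1 in deprived females against 1679 to 2145 (median 1948) in watered females, overlapping, with a log2 difference of -0.26 ± 0.11 (adjusted p = 0.43). In males it was 1748.5 to 2576 (median 2054) with water and 1834 to 3318 (median 2256) without, a log2 difference of 0.20 ± 0.10 (adjusted p = 0.46). The other 6 acyl-CoA genes lay between -0.18 and -0.04 in females and between -0.17 and 0.23 in males, Acsl1 at -0.05 ± 0.07 and -0.01 ± 0.07.

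For the carnitine transferases the changes in females were -0.13 ± 0.10 for Cpt1a, -0.20 ± 0.11 for Cpt2 and -0.14 ± 0.06 for Crat (limma adjusted p = 0.82, 0.63 and 0.35). In males they were -0.05 ± 0.09, 0.08 ± 0.10 and -0.04 ± 0.05 (adjusted p = 0.82, 0.74 and 0.75). The 11 mitochondrial beta-oxidation genes lay between -0.19 and 0.05 in females, with 10 negative, and between -0.08 and 0.18 in males, with 8 positive. Hadha and Decr1 had the smallest p of these in females, at -0.14 ± 0.05 (adjusted p = 0.37) and -0.19 ± 0.09 (adjusted p = 0.5). The 3 electron transfer genes lay between -0.17 and -0.01 in females and between 0.02 and 0.36 in males. The upper end in males was Etfb at 0.36 ± 0.29, where deprived male 7 read 2169 against a group median of 387.

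Of the peroxisomal genes, Acaa1b stood at -0.37 ± 0.12 (adjusted p = 0.22) in females and at 0.17 ± 0.11 (adjusted p = 0.54) in males. Its deprived females, given above, overlapped the watered females in 1 library. Ehhadh was -0.19 ± 0.10 and -0.07 ± 0.09, and Acaa1a -0.02 ± 0.07 and 0.05 ± 0.06. Pdk4 had the widest change of the set in females, -0.54 ± 0.24 (adjusted p = 0.46), with overlapping groups, and was 0.21 ± 0.22 (adjusted p = 0.68) in males. Ucp2 was -0.12 ± 0.16 (adjusted p = 0.94) and -0.01 ± 0.15 (adjusted p = 0.98).

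**Figure D5:**
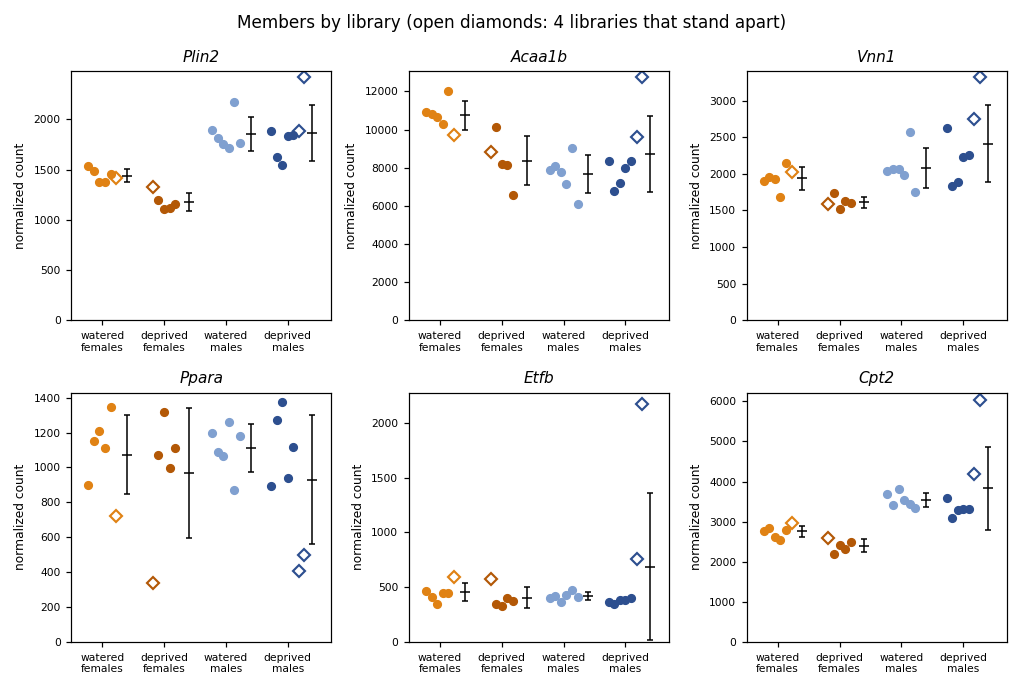
Normalized counts of 6 members by group, 1 point per mouse, with bars for the mean ± SD and open diamonds for the 4 libraries that stood apart. The deprived females of Plin2 (1106 to 1327) lie below the watered females (1375 to 1537), and deprived male 7 stands alone at 2169 for Etfb and 6026 for Cpt2.

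Leaving out the 4 libraries that stood apart, 2 of them from females and 2 from males, brought 6 members past the threshold in females, all lower, where 4.21% of genes were called and 1.93% were lower. These were Plin2 at -0.34, Cpt2 at -0.20, Eci2 at -0.16, Decr1 at -0.20, Acadl at -0.14 and Acaa1b at -0.42, with limma adjusted p of 0.0016, 0.012, 0.022, 0.02, 0.038 and 0.046. A negative change was seen in 34 of 37 members there, with a median of -0.12 against -0.011 for all genes. In males 0 of 37 were called, against 0.807%, 22 were negative and the median was -0.02 against -0.003 for all genes. The mean of both sexes called 6 (Plin2, Cpt2, Decr1, Eci2, Etfb and Acsm3), against 6.99% (2.93% lower), all lower and by 0.12 to 0.29 on the log2 scale. Male and female responses differed in 0 of 37, against 0.0512%. With all libraries the member with the smallest p for that difference was Acaa1b, at 0.54 ± 0.17 (adjusted p = 0.44), followed by Vnn1 at 0.46 ± 0.15 (adjusted p = 0.48) and Plin2 at 0.29 ± 0.11 (adjusted p = 0.58). The value was positive for 32 of 37 members and negative for 5, where 48.4% of all genes were negative. It subtracts the female change, so this count partly repeats the negative changes of the females.

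Markers moved with deprivation in females too. The proximal tubule markers Slc22a6 and Slc22a8 were called lower, at -0.46 and -0.28, with 10 of 12 not called, and 2 of 8 S3 markers were lower, where 0.341% of all genes were. Values were negative for 11 of 12 proximal tubule markers, with a median of -0.13, and for 7 of 8 S3 markers, with a median of -0.17, beside 35 of 37 members with a median of -0.12. Of 8 stroma markers 2 were higher, and the 8 endothelial markers, 0 of them called, had a median of 0.22. The mean log2 level of the proximal tubule markers minus that of the collecting duct markers was 2.96 to 3.27 in watered females, 2.53 to 3.14 in deprived females, 3.34 to 3.61 in watered males and 2.79 to 3.45 in deprived males. The collecting duct list holds the water channels Aqp2 and Aqp3, which vasopressin raises. Without them the balance was 3.65 to 3.84, 3.42 to 4.06, 3.89 to 4.29 and 3.81 to 4.44 in the same order. Whether cell composition has a part in the lower member values of deprived females was not tested beyond fits with this balance as a covariate.

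Other genes of the same pathways, listed by pathway membership, are described next. Of 23 tested genes of peroxisomal oxidation and its machinery, 11 were higher and 3 lower in watered males, and 17 higher and 1 lower in deprived males. Over all genes 15.9% were higher and 14.5% lower with water, and 17.5% and 15.6% without, and the counts of the lists that follow stand beside the same shares. Crot, the peroxisomal carnitine octanoyltransferase, was 3884.5 to 4648 (median 4328) in watered females and 11343 to 13413 (median 12543) in watered males, higher by 1.54 ± 0.06 (adjusted p = 1.2e-16). Amacr, a racemase for branched chains, was 1826 to 2105 (median 1976) and 6853 to 7814 (median 7628), higher by 1.93 ± 0.09 (adjusted p = 2.4e-15). Neither overlapped between the sexes, and Phyh, the phytanoyl-CoA hydroxylase, was higher by 0.87 ± 0.06 (adjusted p = 3.6e-11).

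Of 22 other mitochondrial oxidation and acyl-CoA genes, 13 were higher and 2 lower in males in each water group, beside 15.9% and 14.5% of all genes with water and 17.5% and 15.6% without. Acss2 and Ivd, an acetyl-CoA synthetase and the dehydrogenase of leucine breakdown, were higher in watered males by 1.1 ± 0.05 (adjusted p = 7e-16) and 0.67 ± 0.06 (adjusted p = 1.7e-09), and the acyl-CoA synthetase gene Acsf2 was lower, at -1.12 ± 0.11 (adjusted p = 3.8e-09). Of 7 genes of carnitine uptake and synthesis, 1 was higher and 2 were lower in watered males. Aldh9a1 was higher by 0.63 ± 0.05 (adjusted p = 5.8e-11) and Bbox1, the last step of carnitine synthesis, was lower, at -1.09 ± 0.22 (adjusted p = 0.00031). Of 6 ketone body genes, 2 were higher and 2 lower. Acat1 was higher by 1.15 ± 0.06 (adjusted p = 4.7e-15).

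Further PPARA targets were split between the sexes. Of 35 tested, 7 were higher and 13 lower in watered males, and 9 higher and 8 lower in deprived males, beside 15.9% and 14.5% of all genes with water and 17.5% and 15.6% without. The 7 higher are close to that share. Acot12 and Cyp4a32 were higher in watered males, by 1.24 ± 0.08 (adjusted p = 4.8e-13) and 2.38 ± 0.18 (adjusted p = 3.1e-11), and Acot3 was lower, at -1.90 ± 0.15 (adjusted p = 1.4e-10). Cyp4a14, a fatty acid omega-hydroxylase, was 13078 to 18002 (median 15287) in watered females, 11459.5, 11137, 11465, 11114 and 12151 in deprived females, 249 to 2467 (median 455) in watered males and 360.5 to 4288 (median 689) in deprived males. All males lay below all females, at -4.72 ± 0.46 (adjusted p = 2e-08) with water. The Cyp4a genes are close paralogs, so the split of reads among them is uncertain. Of 23 receptors and coregulators 5 were higher and 1 lower in watered males, with Rxra, the partner of PPARA, higher by 0.53 ± 0.08 (adjusted p = 2.1e-05) and Hnf4a by 0.53 ± 0.12 (adjusted p = 0.00079). Of 13 genes of fatty acid synthesis, the opposed pathway, 5 were higher and 3 lower, with Me1 higher by 1.39 ± 0.06 (adjusted p = 2.9e-16) and Scd1 and Elovl6 lower, at -1.72 ± 0.17 (adjusted p = 1e-08) and -1.70 ± 0.12 (adjusted p = 1.8e-11).

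With deprivation 1 gene of these lists was called in females and none in males, where 0.79% and 0.227% of all genes were called, so that 1 call lies near the background. Abcd3, which encodes the peroxisomal membrane transporter ABCD3 and is no member, was 9986 to 11689 (median 10953) in watered females and 7822 to 9228 (median 8802) in deprived females, without overlap, a log2 difference of -0.33 ± 0.07 (adjusted p = 0.014). In the mean of both sexes Abcd3, Acox2 and Acsl3 were lower, at -0.24 ± 0.05 (adjusted p = 0.0047), -0.26 ± 0.07 (adjusted p = 0.049) and -0.24 ± 0.06 (adjusted p = 0.039). Deprived and watered females did not overlap for 5 of 23 peroxisomal genes, all lower (Hsd17b4, Abcd3, Decr2, Cat and Pex14), and for 7 of 35 further PPARA targets, all lower (Cyp4a10, Cyp4a14, Cyp4a31, Fabp1, Retsat, Acot3 and Acot12), where 1.33% of tested genes were lower without overlap. None of these 7 targets was called. Cyp4a31 and Acot3 were -0.36 ± 0.10 (adjusted p = 0.096) and -0.51 ± 0.16 (adjusted p = 0.16), and Cyp4a14 was -0.41 ± 0.48 (adjusted p = 0.91). Each SE and p rests on 1 spread per gene shared by all groups. For Cyp4a14 the males, whose values are given above, varied far more for their level than the females. Its SE therefore does not measure the spread of the females. In males 0 genes of any of these lists were free of overlap.

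Without the 4 libraries, 7 of 23 peroxisomal genes and 4 of 35 further targets were lower in deprived females, where 1.93% of all genes were lower and 2.28% higher. The peroxisomal 7 were Abcd3, Decr2, Acox2, Hsd17b4, Cat, Pex14 and Acot4, led by Abcd3 at -0.32 ± 0.04 (limma adjusted p = 5.5e-05) and Decr2 at -0.31 ± 0.05 (adjusted p = 0.00039). The 4 targets were Cyp4a31, Slc22a5, Acot3 and Acot4, of which Acot4 stands in both lists. In males 1 of 23 peroxisomal genes was lower, Amacr at -0.23 ± 0.05 (adjusted p = 0.0097), and 0 of 35 targets were called, where 0.273% of all genes were lower and 0.534% higher. The coactivator gene Pprc1 was higher in deprived females, by 0.36 ± 0.09 (adjusted p = 0.02), the 1 of 23 receptors and coregulators called there. In the mean of both sexes Rxra, Pprc1 and Nrf1 were higher, by 0.12, 0.22 and 0.15 (limma adjusted p = 0.046, 0.03 and 0.042), where 4.06% of all genes were.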

How the data were processed

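Kidney RNA was selected for poly A and sequenced, per the labels' protocols. The authors deposited 1 table of normalized counts, a signal on a linear scale, for 19399 genes in 24 libraries, with groups taken from the sample titles. Tools listed in the submitters' processing notes are Trim Galore, Subread with featureCounts, and DESeq2, on mm10. Which aligner, annotation release and strand setting were used is not given in the sources used here. Dividing each deposited value by the step of its library gave a whole number, to 0.01 read, in 100.0% of cases, which recovered 14411843 to 29398960 reads per library. No gene of the table has fewer than 100 reads in total, so rarer genes are absent from it.

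Values were tested with limma 3.58.1 under R 4.3.3 as log2(value + 1), a scale that understates changes of low genes, in 1 fit of all libraries with 1 coefficient per group and a trended, robust prior. A gene was tested if 5 or more libraries reached a value of 10, true of 17592 genes and not of 1807. Benjamini-Hochberg adjustment ran over all tested genes, with calls below 0.05. All adjusted p given are from limma unless another tool is named. Exonic lengths and coordinates are 1-based, from GENCODE M21 on GRCm38 (mm10). Nothing in the labels ties replicate numbers to a litter or day. The fit was also run on simulated counts. These had the same spread for every gene and no libraries that stood apart. That run therefore does not show how the fit performs on the present data.

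The members, lists and alternatives were chosen with earlier results of these data known. All 37 members were accounted for, with up to 12 called members per contrast by smallest p in full, group values for the 8 largest called sex differences and 9 fixed genes, and up to 4 genes per other list. Some genes of those lists are not reported here. Hadha, Slc27a2, Cpt2, Acaa1b, Vnn1, Cyp4a14 and the overlapping genes of the Acsm stretch are given more fully, a choice made after their values were seen. Alternatives were pseudocounts of 0.5 and 5, no filter or a value of 50, TMM factors, no trend, array weights, a replicate block, deprived female 5 as watered, 4 libraries left out, marker balance as a covariate, each sex alone, edgeR 4.0.16, DESeq2 1.42.0 on recovered reads, and each library left out.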

Additional observations from a re-analysis of the deposited data

Results flagged for a closer look

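A sample was looked at again where its gap to the nearest other of its group was a large share of that group's range. Of 148 pairs of a member and a group, 27 had such a sample, and chance alone flags about 1 in 20, or 7.4. Of the 27, 13 were the highest value of deprived male 7, 1 of the 4 libraries that stood apart. Among the genes of the mitochondrion these were Cpt2 at 6026 (nearest other 4182), Acadm at 30893 (nearest other 25102.5), Acadl at 10985 (nearest other 8515), Acads at 6884 (nearest other 5070.1), Hadh at 16639 (nearest other 13103) and Decr1 at 6981 (nearest other 5128). The isomerase, electron transfer and thioesterase genes gave Eci1 at 3571 (nearest other 2231.5), Etfb at 2169 (nearest other 762) and Acot2 at 1238 (nearest other 738). The peroxisomal genes gave Acaa1a at 4069 (nearest other 3344) and Ehhadh at 25417 (nearest other 19371), and the others were Plin2 at 2419 (nearest other 1889.7) and Ucp2 at 4178 (nearest other 2668). Deprived male 6 was highest for Crat at 3939.9 (nearest other 3539.7) and lowest for Acsm2 at 84286 (nearest other 97448). Deprived female 1 was lowest for Cpt1a at 5639 (nearest other 7948) and highest for Hadh at 9815 (nearest other 8778), Eci1 at 2579.6 (nearest other 1970.0), Eci2 at 1903 (nearest other 1644) and Etfa at 8675 (nearest other 7381).

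The remaining 7 were outside the 4 libraries. Deprived female 5, whose labels disagree, was lowest for Slc27a2 at 59885 (nearest other 64901.5). Watered male 5 was highest for Acaa2 at 5875 (nearest other 4553) and Acot2 at 762 (nearest other 614), watered male 4 for Acsm3 at 20553 (nearest other 17969.9), and watered male 6 was lowest for Crat at 3286 (nearest other 3591). Among watered females, female 4 was lowest for Acadl at 6313.5 (nearest other 6708) and female 5 highest for Eci2 at 1966 (nearest other 1813). What set these values apart was not tested.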

How the results depend on the processing

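The call of no member in the deprivation contrasts depended on the processing. In females array weights called 6, leaving out the 4 libraries 6, the marker balance as a covariate 10, and the balance without Aqp2 and Aqp3, added after the data were seen, 1 (Cpt1a). Fitting each sex alone called 1 and DESeq2 1, both Plin2. In the mean of both sexes the same settings called 5, 6, 10 and 5, and DESeq2 1 (Acsm3). All of these were lower in deprived mice. In males DESeq2 called 1 (Acsm3). Leaving out 1 library at a time gave 0 to 1 in females (Plin2, without deprived male 7), 0 to 1 in the mean (Acsm3 without watered female 6, Plin2 without deprived male 7) and 0 in males. The replicate block called 1 in females (Plin2) and 2 in the mean (Plin2 and Acsm3). Same-numbered libraries had correlations of -0.17 to 0.45 in their deviations and correlated best with their own number in 13 of 66 comparisons. Such correlations cannot decide whether same-numbered mice shared a litter or day. Counting deprived female 5 as watered called 0 members. The background moved as well. Over all genes the 139 called in females became 1003 with array weights, 741 without the 4 libraries, 1528 and 424 with the balance covariates, 364 by DESeq2, 2 with deprived female 5 as watered, and 66 to 215 with 1 library left out. The 40 in males became 133, 142, 81, 878 and 157 in the first 5 of these settings, 64 with the replicate block, 11 with each sex alone and 22 to 65 with 1 library left out. The 289 in the mean became 1165, 1230, 1693, 2004 and 562 in those 5 settings, 120 with deprived female 5 as watered and 169 to 330 with 1 library left out. The 0 genes of the male minus female response became 9, 9, 3, 12 and 30, and 0 to 3.

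The sex counts ranged over 23 to 29 in watered and 22 to 25 in deprived mice when 1 library was left out, and over 24 to 29 and 23 to 28 in the other alternatives. Of the watered calls 16 of 27 held in every alternative, as did 20 of 23 deprived calls. The 11 watered calls lost in some were Ppargc1a, Cpt1a, Crat, Hadhb, Acaa2, Acaa1a, Acaa1b, Acsm5, Acot1, Acot2 and Angptl4, and the 3 deprived ones Cpt1a, Acsm5 and Pdk4. The watered calls were lost on leaving out 1 library for Cpt1a (watered male 4), Acot1 (watered male 6), Acaa1a (watered female 6, watered male 1 or 3), Angptl4 (6 of 24 libraries), Acot2 (8 of 24) and Ppargc1a (13 of 24), and the deprived call of Pdk4 without deprived female 4 or 5. Cpt1a in watered mice turned to -0.04 with the marker balance as a covariate and to -0.10 without Aqp2 and Aqp3 in it. Either form of that covariate also lost the watered calls of Hadhb, Acaa2, Acaa1b, Acsm5, Acot1 and Acot2. Both forms lost the deprived calls of Cpt1a, Acsm5 and Pdk4 as well. The watered call of Crat was lost only with the form without Aqp2 and Aqp3. The causes were not tested. With 5 to 7 mice a group and a member SE of about 0.09, the smallest deprivation value called for a member in any of these settings was -0.11 (Eci2 in the mean of both sexes, array weights).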

Other observations

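In the males, 2 libraries held many of the highest values of the set, a pattern singled out after the values were seen. Deprived male 7 held the highest value of its group for 25 of 37 members and 20 of 35 further PPARA targets. Watered male 5, which is not among the 4 libraries that stood apart, did so for 16 members and 14 targets, and held the lowest for 11 members and 4 targets. Cyp4a14 was 468.5, 681, 441.5, 416, 2467 and 249 in watered males 1 to 6 and 852, 360.5, 599, 517, 689, 828 and 4288 in deprived males 1 to 7. Watered male 5 and deprived male 7 stood highest in their groups, and neither reached the lowest female value, 11114. Watered male 6 was lowest for 17 members and 12 targets. How often each library was highest or lowest over all tested genes is not given here. These counts therefore have no background beside them and may not be particular to the set. What sets these mice apart was not tested.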
